A study of Mus musculus with 11 samples.

Results

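The genes of homologous recombination and of the Fanconi anemia pathway were followed across mouse oviduct and ovarian surface epithelium (OSE), the organoids grown from them, and the tumors grown from edited oviductal organoids. The group holds 42 of the 18305 genes in the count table. Members were taken by symbol, by a rule that reads no measured value although earlier results of these data were known when it was set: the single-letter Fanconi genes, the Rad50-series genes and Xrcc1 to Xrcc6, together with Brca2, Palb2, Bard1, Brip1, Atm, Atr, Chek1, Chek2, Mre11a, Nbn, Rbbp8, Parp1, Parp2, Trp53bp1, Blm and H2afx. Brca1 was left out because it was a target of the editing.

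Homologous recombination copies the sister chromatid to mend a double-strand break, and so works mainly in cells that have replicated their DNA. The MRN complex (Mre11a, Rad50 and Nbn) recognises the broken end and Rbbp8 (CtIP) starts its resection, after which Bard1 with Brca1, Palb2 and Brca2 act on the resected strand. The Fanconi core complex modifies Fanci and its partner at DNA crosslinks, the kinases Atm and Atr signal through Chek2 and Chek1, and the Ku proteins Xrcc5 and Xrcc6 with Xrcc4 join ends without a template. Loss of recombination is common in high-grade serous carcinoma, the tumor that the oviduct and OSE are both thought able to give rise to, and is the reason that this cancer is treated with PARP inhibitors.

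RNA was counted in 27 libraries prepared by CEL-Seq2, a method that reads 1 tag near the 3′ end of a transcript, so that a count does not grow with transcript length. Tissue and its cultures came from C57BL/6 females. Whole oviduct, bulk OSE tissue and oviductal organoids gave 3 libraries each, and OSE organoids gave 2. The study describes pronase as the step that freed OSE cells for culture. It does not say whether the bulk OSE tissue was obtained in this way. The 3 Cas9-GFP organoid libraries came from oviducts of B6J.129(B6N)-Gt(ROSA)26Sor mice with the allele tm1(CAG-cas9*,-EGFP)Fezh/J, in which a ubiquitous promoter drives Cas9 and EGFP. The 3 TBP clone libraries came from clones picked from such organoids after guide editing that included Trp53 and Brca1 and growth in Nutlin-3a. Each library is taken as the progeny of a single clone. By the study's description, fewer independent clones were made per combination of mutations than there are TBP clone libraries. These libraries are therefore not all of independent clones, and which of them share a clone is not given in the sources used here. Comparisons that use them measure the spread between libraries, not between independent clones. Editing of Brca1 was described as inefficient, and the study obtained no clone with both Brca1 alleles out of frame. Its heterozygous Brca1 mutants had more cells positive for phosphorylated H2A.X after mitomycin C, which it read as a defect of break repair. The 6 TBP tumors grew from TBP clones under the skin of NSG females (NOD.Cg-Prkdc scid Il2rg tm1Wjl/SzJ), hosts that lack T, B and NK cells, keep other cells with intact Trp53, and carry a mutation in the end-joining kinase gene Prkdc. The 4 tumor-derived organoid lines were grown from such tumors in Nutlin-3a, with T1-mes and T3-mes from tumors of mixed epithelial and mesenchymal look and T2-epi and T4-epi from epithelial tumors. By the study's description all 4 lines go back to 1 TBP clone, with T1-mes and T2-epi from adjacent tumors, so they are not independent of each other. The labels do not tie the 6 sequenced tumors to clones, hosts or lines. Clones, tumors and tumor-derived organoids all carry the Cas9-EGFP allele and the TBP editing, and the Cas9-GFP organoids carry the allele alone.

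Library totals ran from 82239 counts in TBP clone 1 to 4531767 in TBP clone 3, and the other 25 libraries held 600579 to 3083507. At the depth of TBP clone 1 a single count was worth 11.2 CPM (the count scaled to a common library size, by TMM over all 27 libraries), and only 16 of the 42 genes had any count there, so results that use it are also given without it. Trp53, the selected target, stood at 34.5 to 61.0 CPM in Cas9-GFP organoids, at 0, 0.536 and 5.02 CPM in TBP clones 1 to 3 and at 4.37 to 9.22 CPM in tumor-derived organoids. The tumors held 18.3 to 57.1 CPM of Trp53, beside fibroblast markers (6 genes) that summed to 9650 to 56973 CPM. Of 5 oviduct markers, the secretory protein Ovgp1 set the cultures apart: it stood at 14636 to 22938 CPM in oviductal organoids but at 66.3 to 94.98 CPM in Cas9-GFP organoids. The library OSE organoids 2 held Ovgp1 at 3243 CPM and the oviductal transcription factor Pax8 at 180 CPM, against 19.1 and 43.5 CPM in OSE organoids 1. Of the other oviduct markers, its Pax2 and Dnali1 were at 0. Its Foxj1 was at 5.57 CPM, against 46.6 to 62.6 CPM in oviductal organoids. The study reported Pax8 in OSE organoids too, so Pax8 alone does not mark oviduct cells. Because of the Ovgp1 level, results on OSE organoids are also given without OSE organoids 2. The OSE tissue held granulosa markers (5 genes) at 3471 to 4207 CPM, steroidogenic markers (5 genes) at 6205 to 7611 CPM and oocyte markers (6 genes) at 557 to 729 CPM, so it was not surface epithelium alone. In bulk RNA fewer cells of a type and less RNA per cell cannot be told apart.

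Most of the 42 genes were sparsely counted. In a given comparison 12 to 32 of them passed the filter on low counts, 10 passed in all 10 comparisons, and 8 passed in none: Fanca (1 count in all libraries), Rad51ap2 (5), Xrcc3 (55), Trp53bp1 (70), Rad54l (98), Palb2 (99), Fanci (102) and Rad51c (123). The deepest members over all libraries were Rad50 with 2459 counts, Parp2 with 1580, Xrcc5 with 1212, Rbbp8 with 1194 and Xrcc1 with 1091. Among the roles, the 8 Fanconi core genes summed to between 26.2 and 92.7 CPM in a library and the 5 genes of MRN, resection and Blm to between 54.2 and 181 CPM. In the map of levels Rad50 stands out among the genes of the second sum. That sum had its highest group median in tumor-derived organoids. It ranged there from 134 to 181 CPM, overlapping the TBP clones at 89.4 to 169 CPM.

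**Figure D1:**
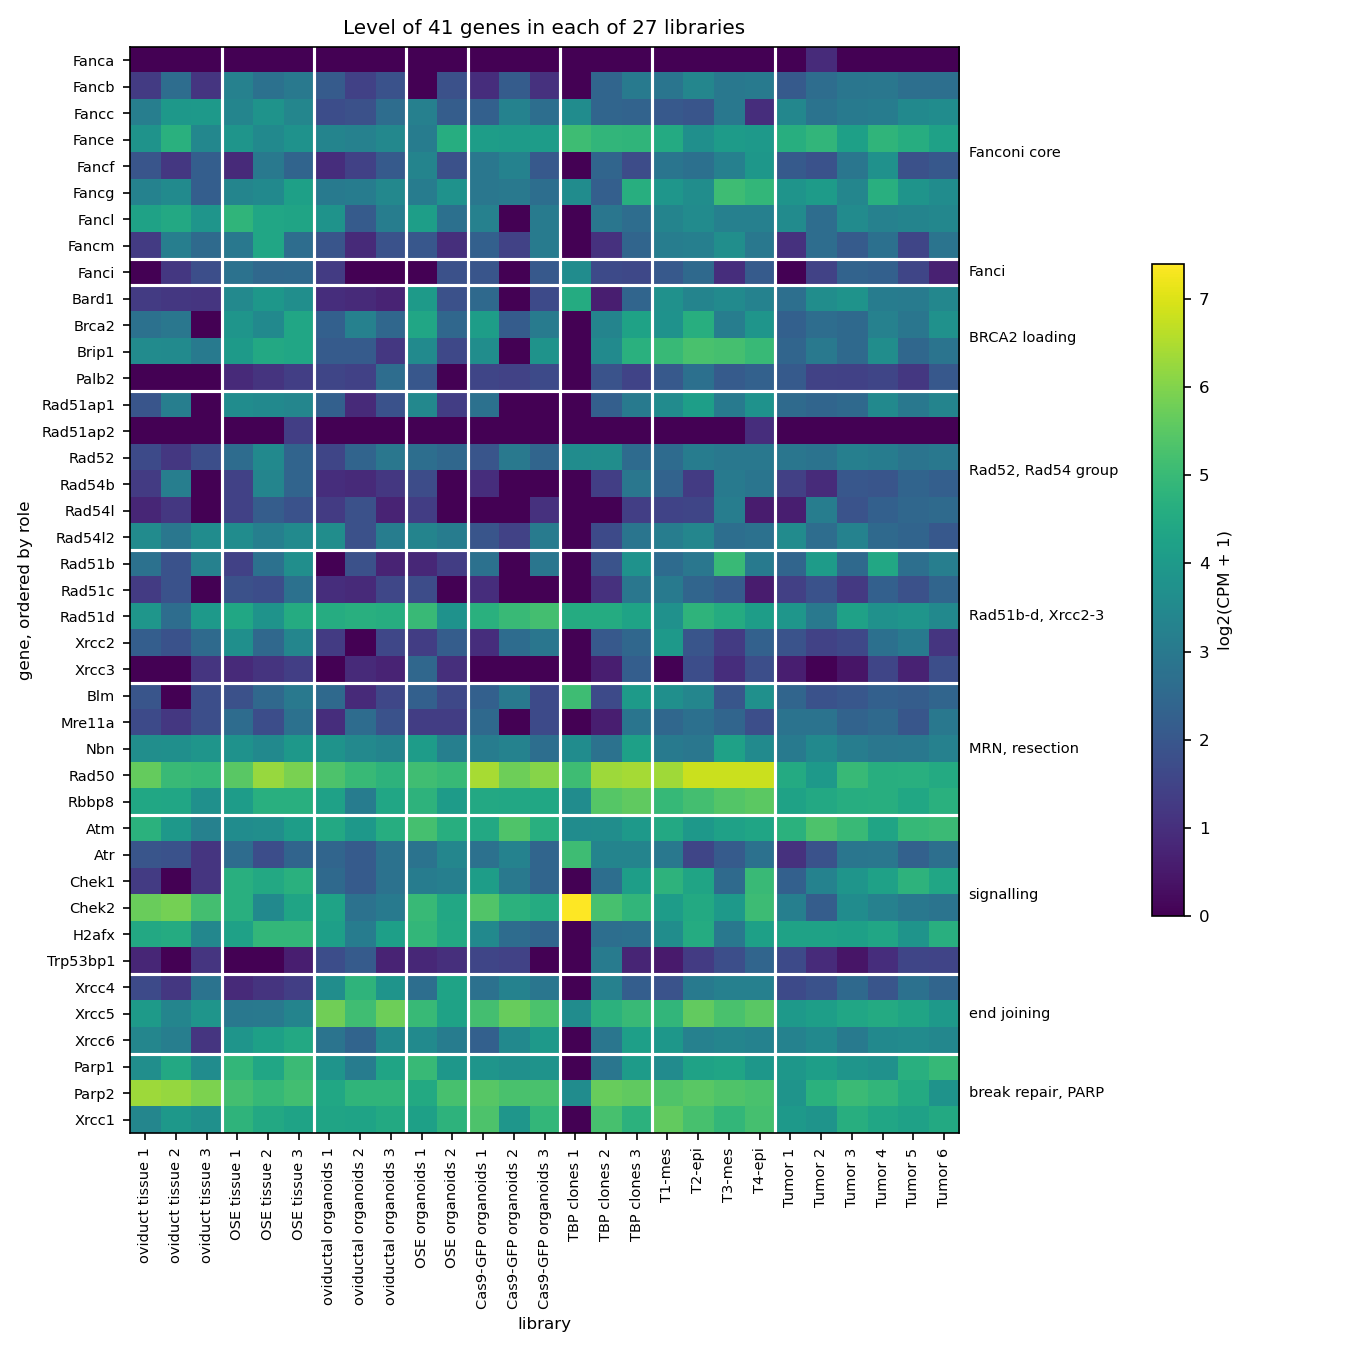
Level of 41 of the 42 genes (rows, ordered by role) in each of the 27 libraries (columns, white lines between groups), as log2(CPM + 1) with a pseudocount of 1 for display. Rad50 and Parp2 form bright rows, and TBP clone 1, with 82239 counts, has most genes at 0.

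Of the 42 genes, 8 changed in at least 2 comparisons and are followed library by library: Atm, Bard1, Brip1, Chek1, Chek2, Parp2, Rad50 and Xrcc5. Of these, Chek1 and Bard1 were lower in oviduct tissue than in OSE tissue and tumors, whereas Chek2 and Parp2 were higher there than in either. Chek1 lies at chromosome 9, 36708482 to 36727065, and Bard1 at chromosome 1, 71027498 to 71103146, both on the minus strand of GRCm38. Chek2 lies at chromosome 5, 110839979 to 110874145, and Parp2 at chromosome 14, 50807841 to 50821301, both on the plus strand.

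Chek1 moved with Bard1, and Chek2 with Parp2, between oviduct tissue and either OSE tissue or tumors. Both contrasts use the same oviduct libraries, and Chek1 and Bard1 did not move together everywhere. In oviductal organoids Chek1 stood at 4.77, 3.38 and 5.91 CPM, above every oviduct tissue library. Bard1 stood there at 0.954, 0.846 and 0.656 CPM, below every oviduct tissue library. The promoter windows of these 4 genes are shown because of their shared directions against oviduct tissue. Each runs from 250 bases before to 50 after a RefSeq start (build GRCm38.p6), 5′ to 3′ on the strand of the gene, with capitals marking matches on either strand to E2F words (TTTCCCGC, TTTGGCGC, TTTCGCGC or TTTGCCGC), to the related word GGCGGGAA, to CHR words (TTTGAA or TTCGAA) and to CCAAT.
Chek1, chr9:36726609-36726908, minus strand: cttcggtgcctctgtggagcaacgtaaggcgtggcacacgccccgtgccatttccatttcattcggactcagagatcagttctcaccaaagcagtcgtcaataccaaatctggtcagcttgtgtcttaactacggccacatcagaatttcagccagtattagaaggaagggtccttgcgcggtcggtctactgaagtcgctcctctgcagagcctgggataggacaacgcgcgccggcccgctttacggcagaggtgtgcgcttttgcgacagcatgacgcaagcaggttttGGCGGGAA
Bard1, chr1:71102923-71103222, minus strand: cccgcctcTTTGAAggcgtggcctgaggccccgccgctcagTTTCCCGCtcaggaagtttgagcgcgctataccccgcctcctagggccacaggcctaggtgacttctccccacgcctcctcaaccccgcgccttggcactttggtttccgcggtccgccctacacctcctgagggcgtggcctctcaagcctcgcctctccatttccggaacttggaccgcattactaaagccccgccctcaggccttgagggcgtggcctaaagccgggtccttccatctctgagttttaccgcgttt
Chek2, chr5:110839733-110840032, plus strand: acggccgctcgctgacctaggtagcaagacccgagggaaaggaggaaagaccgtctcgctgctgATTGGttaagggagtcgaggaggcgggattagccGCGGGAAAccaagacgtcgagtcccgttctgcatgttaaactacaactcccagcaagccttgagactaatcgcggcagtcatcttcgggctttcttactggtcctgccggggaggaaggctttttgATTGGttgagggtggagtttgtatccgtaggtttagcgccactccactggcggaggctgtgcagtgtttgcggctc
Parp2, chr14:50807666-50807965, plus strand: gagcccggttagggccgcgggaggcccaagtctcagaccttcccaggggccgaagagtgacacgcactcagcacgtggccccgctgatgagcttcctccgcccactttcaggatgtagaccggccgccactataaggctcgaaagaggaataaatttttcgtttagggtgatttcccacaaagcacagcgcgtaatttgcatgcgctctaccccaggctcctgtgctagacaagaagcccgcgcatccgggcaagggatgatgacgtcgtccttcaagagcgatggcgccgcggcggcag
The Bard1 window held an E2F word at -209 and a CHR word at -242, counted from the start. The Chek2 window held an E2F word at -152 and CCAAT at -186 and -26, both on the other strand, and the Parp2 window held none of these words. The Chek1 window held only GGCGGGAA, at 43 bases past the start, a word added to the search after this window had been seen and one that can overlap the first E2F word. The whole Chek1 window lies inside the gene interval given above, whose 5′ end is at 36727065, so its RefSeq start is downstream of that end.

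RefSeq windows were found for 33 of the 42 genes (36 windows), and the members without one included H2afx, Nbn, Rad50, Rad51d, Rad54b, Rad54l2, Rbbp8 and Xrcc2. An E2F word stood in 7 of the 36 windows (19.4%), those of Bard1, Brca2, Chek2, Fancg, Rad51c and Xrcc6, and in 2.26% of all 32851 windows. GGCGGGAA stood in 16.7% of the members' windows and 2.19% of all, CCAAT in 58.3% and 37.4%, and CHR words in 8.33% and 19.2%. A match is a run of letters, not a bound site. Several members start close to a gene read the other way, with 59 bases between the starts of Xrcc4 and Tmem167, 81 between Mre11a and Ankrd49, and 376 between Atm and Npat.

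Oviduct tissue was first compared with OSE tissue, the 2 proposed sites of origin. Changes were called by edgeR's quasi-likelihood test with Benjamini-Hochberg adjustment over all genes tested, at an adjusted p under 0.05. Of 19 members tested, 2 were higher in the oviduct and 7 lower, where 26.9% of all genes tested were higher and 24.3% lower. The median log2 fold change was -0.62 over the members and 0.00166 over all genes. The lower genes were the checkpoint kinase Chek1, the Brca1 partner Bard1, Brca2, the helicase Brip1, the Ku subunit Xrcc6, Parp1 and the scaffold Xrcc1, and the higher genes were Chek2 and Parp2.

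Chek1 stood at 1.45, 0 and 1.22 CPM in the 3 oviduct libraries and at 24.5, 21.0 and 24.9 CPM in the 3 OSE libraries. The groups lay far apart, and because no oviduct library held more than 3 counts the fold is a lower bound, at least 7.20-fold lower against a floor of 3 counts per library (adjusted p = 3.17e-06). Bard1 stood at 1.45, 1.32 and 1.22 CPM in oviduct and at 10.2, 14.0 and 11.7 CPM in OSE tissue. Again the groups did not overlap, and by the same floor the oviduct was at least 3.66-fold lower (adjusted p = 0.000105). Brip1, a helicase that binds Brca1, stood at 10.9, 10.5 and 7.33 CPM in oviduct and at 15.2, 21.0 and 19.6 CPM in OSE tissue, a log2 fold change of -0.90 (SE 0.32, adjusted p = 0.0276). Brca2 changed by -1.77 (SE 0.51, adjusted p = 0.00907) and Xrcc6 by -1.38 (SE 0.43, adjusted p = 0.0137), with no overlap of the groups, whereas the groups overlapped for Parp1 (log2 fold change -0.94, adjusted p = 0.0218).

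Chek2, the kinase that carries the Atm signal, ran the other way. It stood at 51.5, 56.6 and 35.4 CPM in oviduct and at 24.5, 10.5 and 19.1 CPM in OSE tissue, a log2 fold change of 1.39 (SE 0.29, adjusted p = 0.000874). Parp2, which senses DNA breaks, stood at 78.4, 73.7 and 59.9 CPM in oviduct and at 35.5, 30.3 and 35.0 CPM in OSE tissue, a log2 fold change of 1.09 (SE 0.20, adjusted p = 0.000298). For both genes every oviduct library was above every OSE library.

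The genes that fell stood beside a broad difference in cell division genes. Of the proliferation list (40 genes, 35 tested), 32 were lower in the oviduct and none higher, and its sum was 455 to 849 CPM in oviduct against 3244 to 3517 CPM in OSE tissue. Of other recombination and Fanconi genes (42 in the table, 19 tested) 2 were higher and 9 lower, including the single-strand binding subunit Rpa2 (log2 fold change -1.83, adjusted p = 9.59e-06) and the helicase Helq (-1.77, adjusted p = 1.08e-05). Of other checkpoint genes (13 tested) 8 were lower, including the Chek1 mediator Clspn (-2.51, adjusted p = 4.47e-05) and the phosphatase Cdc25a (-1.65, adjusted p = 8.39e-05), and of other end-joining genes 1 of 2 tested was lower, Nhej1. Granulosa, steroidogenic and oocyte markers were high in OSE tissue as given above, and smooth muscle markers were high in oviduct, at 5434 to 6754 CPM against 505 to 730 CPM. The part of these cells and of proliferation in the members' changes was not tested.

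Chek1, Bard1 and Parp2 were called under every alternative run, and Chek2 under all but the fit of all 27 libraries. Without OSE tissue 3 the count fell to 5, with Brca2 (adjusted p = 0.0673) and Xrcc6 (0.0717) among those lost. Brip1 lost its call without any 1 of oviduct tissue 1, 2 or 3 or OSE tissue 2 or 3 (up to 0.0884), Parp1 without oviduct tissue 1 or OSE tissue 3 (up to 0.137), and Xrcc1 without oviduct tissue 1 or OSE tissue 1 (up to 0.183). The fit of all 27 libraries ended the calls of all 5 of these genes, and DESeq2 those of Brip1, Parp1, Xrcc1 and Xrcc6.

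**Figure D2:**
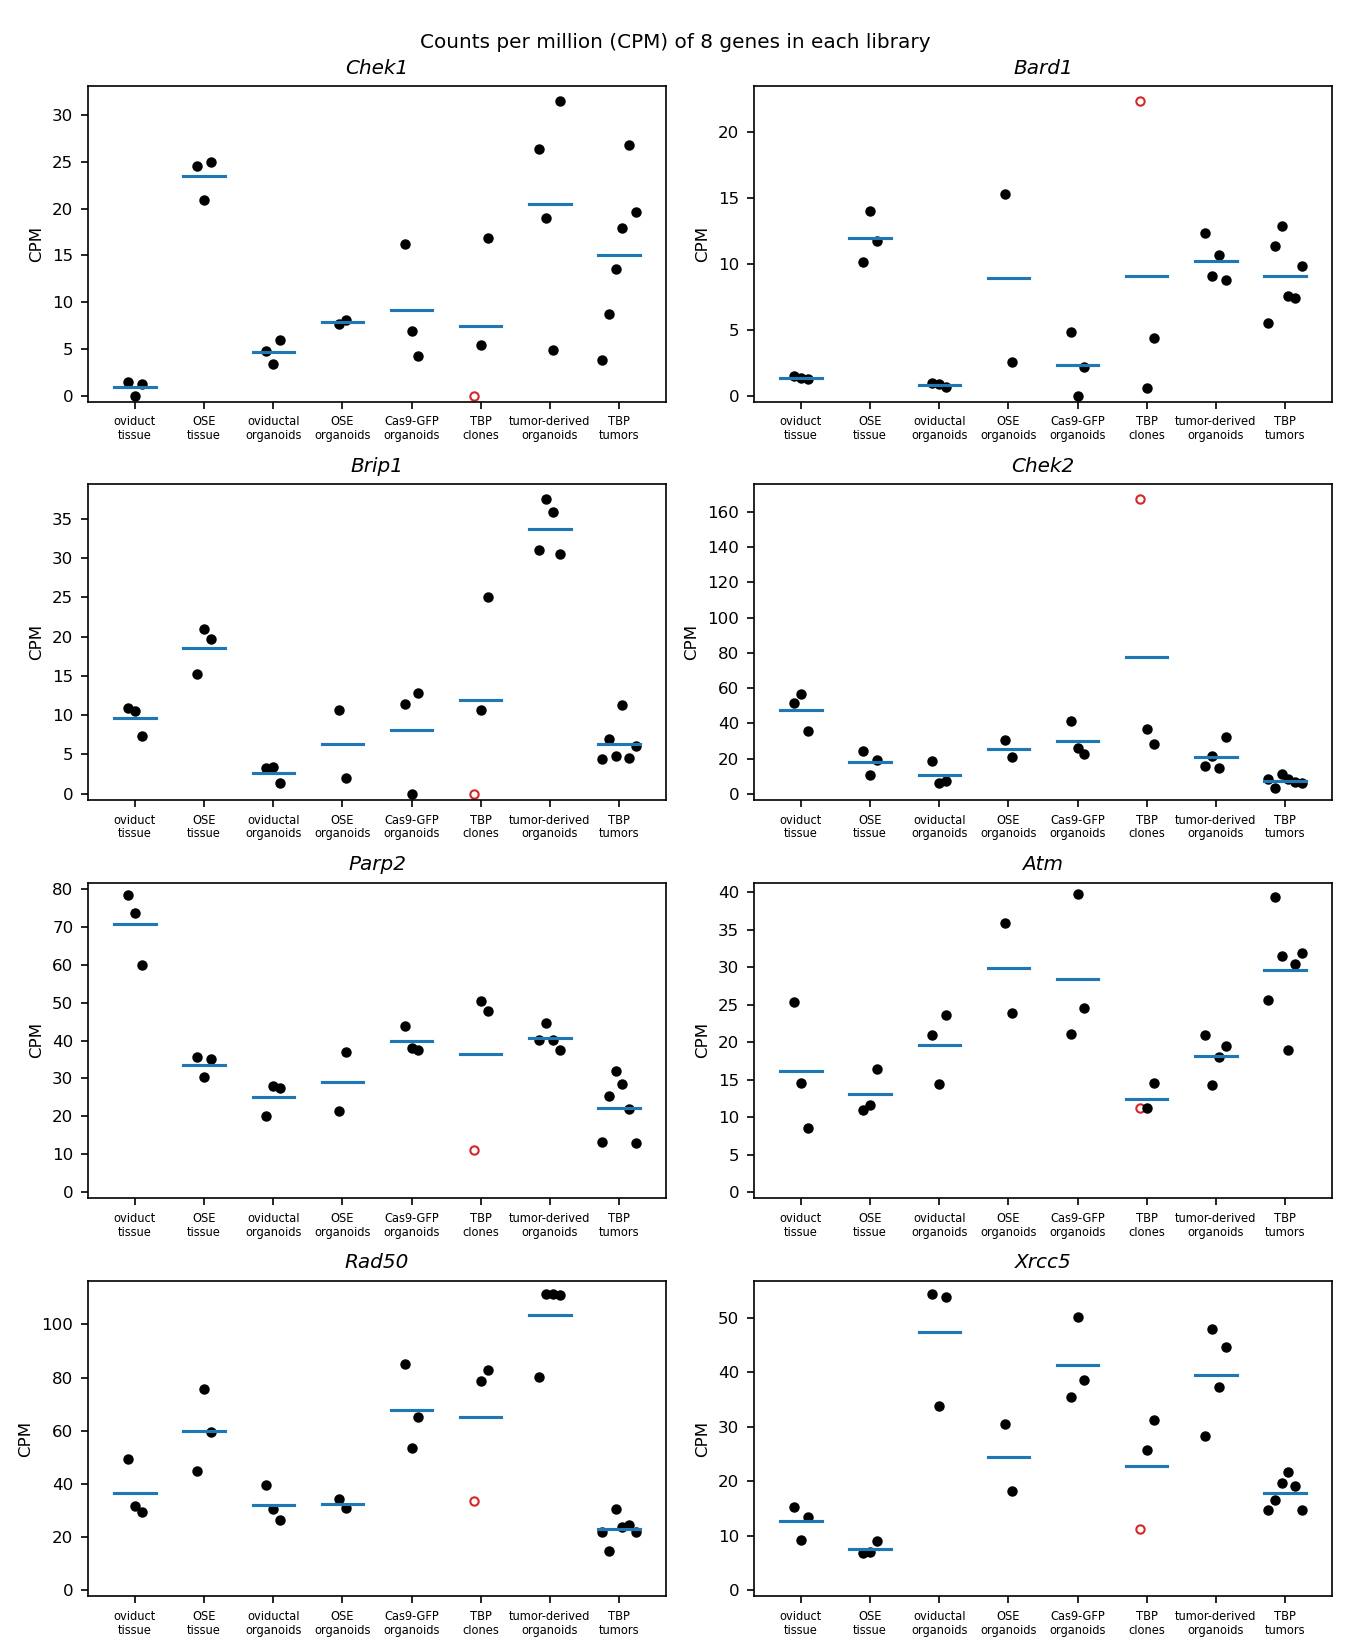
CPM (vertical axis, from 0) of 8 genes in each library, by group (horizontal axis), with 1 point per library, a blue bar at the group mean and an open red circle for the shallow TBP clone 1. Chek2 and Parp2 stand high in oviduct tissue, where Chek1 is at or below 1.45 CPM, and Rad50 is at 80.2 to 112 CPM in the tumor-derived organoids.

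The second question was how far the cultures kept the levels of the tissue. Oviductal organoids differed from oviduct tissue in 7 of 19 members tested, with 3 higher and 4 lower, where 18.7% of all genes tested were higher and 24.2% lower. The median log2 fold change was -0.22 over the members and -0.02 over all genes. Genes of end joining were higher in culture (Xrcc5 and Xrcc4), with Rad51d, which assists recombination, and Chek2, Parp2, Brip1 and the Fanconi core subunit Fancc were lower.

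Xrcc5, the large Ku subunit, stood at 15.2, 9.21 and 13.4 CPM in tissue and at 54.4, 33.9 and 53.8 CPM in oviductal organoids, a log2 fold change of 1.86 (SE 0.31, adjusted p = 0.000424). Xrcc4, which holds the ligase at the ends, stood at 2.18, 1.32 and 6.11 CPM in tissue and at 11.4, 27.1 and 13.1 CPM in organoids (log2 fold change 2.39, SE 0.59, adjusted p = 0.00627). Both genes were higher in every organoid library. The ligase gene itself, Lig4, was the 1 end-joining gene outside the group that changed, of 4 tested (log2 fold change 1.84, SE 0.38, adjusted p = 0.00187). Xrcc6, the partner of Xrcc5, stood at 9.43, 7.89 and 1.22 CPM in tissue and at 6.20, 4.23 and 10.5 CPM in organoids, and the groups overlapped.

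Chek2 stood at 18.6, 5.92 and 7.22 CPM in oviductal organoids, all below the 35.4 CPM of the lowest tissue library (log2 fold change -2.11, SE 0.39, adjusted p = 0.00086). Parp2 stood at 20.0, 27.9 and 27.6 CPM, against 59.9 CPM or more in tissue (-1.52, SE 0.24, adjusted p = 0.000284). Brip1 stood at 3.34, 3.38 and 1.31 CPM (-1.83, SE 0.48, adjusted p = 0.0083), also with no overlap. Fancc changed by -1.82 (SE 0.49, adjusted p = 0.0103) and Rad51d by 1.01 (SE 0.36, adjusted p = 0.0408). Of other recombination and Fanconi genes (19 tested) 1 was higher and 4 lower, including Swsap1 (-1.48, adjusted p = 0.0112) and Rpa2 (-1.12, adjusted p = 0.0137). Of 25 proliferation genes tested 1 was higher and none lower.

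Tissue and organoids also differed in what cells they held. Smooth muscle markers were at 5434 to 6754 CPM in tissue and at most 6.68 CPM in organoids, fibroblast markers at 3807 to 7022 CPM and at most 5.08 CPM, and the 6 epithelial markers at 1623 to 1982 CPM and 5550 to 7170 CPM. RNA was extracted with Trizol from tissue and with a column kit from organoids, so that extraction and culture cannot be told apart. Fancc lost its call without oviduct tissue 2 (adjusted p = 0.0509), Rad51d without oviductal organoids 2 or 3 or oviduct tissue 1 or 2 (up to 0.134), and DESeq2 called neither Rad51d nor Brip1. Xrcc5, Xrcc4, Chek2 and Parp2 were called under every alternative run.

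In OSE, 3 of 28 members tested differed between organoids and tissue: Xrcc5 and Atm were higher in organoids and Chek1 lower, where 14.5% of all genes tested were higher and 18.6% lower. The median log2 fold change was -0.30 over the members and -0.06 over all genes. Xrcc5 stood at 6.77, 6.99 and 9.02 CPM in OSE tissue and at 30.5 and 18.2 CPM in OSE organoids (log2 fold change 1.66, SE 0.39, adjusted p = 0.0181). Atm, the kinase activated at double-strand breaks, stood at 11, 11.6 and 16.5 CPM in tissue and at 35.9 and 23.8 CPM in organoids (1.18, SE 0.35, adjusted p = 0.0418). Chek1 stood at 7.63 and 8.11 CPM in organoids against 21.0 CPM or more in tissue (-1.54, SE 0.35, adjusted p = 0.0149). None of these genes had overlapping groups.

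The fall of Chek1 in OSE organoids stood beside proliferation genes, of which 16 of 37 tested were lower and none higher, with a sum of 637 to 1797 CPM in organoids against 3244 to 3517 CPM in tissue. Granulosa, steroidogenic and oocyte markers were at most 9.12, 13.2 and 4.56 CPM in OSE organoids, and the part of those cells was not tested. Of other recombination and Fanconi genes (31 tested) 5 were lower, including Helq (-1.94, adjusted p = 0.00473) and Rpa2 (-2.32, adjusted p = 0.0113), and none higher. Other end-joining genes gave 1 lower of 7 tested, Nhej1 (-2.89, adjusted p = 0.00967).

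With 2 organoid libraries this comparison turned on each library. Leaving out OSE tissue 1, 2 or 3 ended all 3 calls (adjusted p up to 0.145 for Atm, 0.075 for Chek1 and 0.0803 for Xrcc5). Leaving out OSE organoids 2, the library with oviduct markers, gave 7 calls of 30, with Atm and Xrcc5 higher and Chek1, Fancb, Rad50, Rad51b and Xrcc2 lower, where 22.7% of all genes were higher and 29.3% lower in that fit. Leaving out OSE organoids 1 gave 16 calls of 33, of which 4 were higher and 12 lower, where 25.2% of all genes were higher and 28.8% lower. Each of those fits assumed that the lone organoid library varied like the tissue libraries.

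Between oviductal and OSE organoids no member was called by edgeR (19 tested) or DESeq2 (40 tested). Of all genes tested, edgeR called 0.0864% higher and 0% lower, and DESeq2 called 1.24% and 0.623%. The design had little power, with 1% of 4-fold changes recovered in simulated counts, so that the lack of calls does not show equal levels. At an unadjusted p under 0.05, 1 member was higher and none lower, beside 598 and 462 genes of all 9257. The members with the smallest p were Xrcc5 (log2 fold change 0.996, SE 0.38, adjusted p = 0.398), Chek2 (-1.20, SE 0.55, adjusted p = 0.475) and the histone gene H2afx (-0.80, SE 0.45, adjusted p = 0.551). For each of these the groups did not overlap: H2afx, whose product marks broken chromatin, stood at 17.2, 7.62 and 17.1 CPM in oviductal and at 29.0 and 21.3 CPM in OSE organoids. Bard1 stood at 0.954, 0.846 and 0.656 CPM in oviductal organoids and at 15.3 and 2.53 CPM in OSE organoids, with at most 2 counts in an oviductal library. It was the 1 member of 24 called when OSE organoids 2 was left out, a fit that took the spread from the oviductal libraries alone and called 8.73% of all genes higher and 5.98% lower.

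Whether culture acted differently in the 2 origins was tested as an interaction over these 11 libraries. Of 30 members tested 1 was positive and 1 negative, where 5% of all genes tested were positive and 6.68% negative. Chek1 had the positive term, 3.78 (SE 0.75, adjusted p = 0.00724): it was lower in OSE organoids than in OSE tissue, whereas in oviduct it stood at 0 to 1.45 CPM in tissue and at 4.77, 3.38 and 5.91 CPM in organoids. The size of that term depends on the handling of the 3 oviduct tissue libraries, none of which held more than 3 Chek1 counts. Chek2 had the negative term, -2.51 (SE 0.61, adjusted p = 0.0203): it was lower in oviductal organoids than in oviduct tissue, and in OSE it stood at 24.5, 10.5 and 19.1 CPM in tissue and at 30.5 and 20.8 CPM in organoids. Chek1 was called under all 14 alternatives, and Chek2 lost its call without oviduct tissue 1 or 2, OSE tissue 3 or oviductal organoids 3, with an adjusted p of up to 0.053.

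Cas9-GFP organoids were compared with the oviductal organoids of C57BL/6 mice, as the 2 unedited cultures. Of 14 members tested 2 were higher and none lower, where 13.0% of all genes tested were higher and 13.3% lower. The median log2 fold change was 0.44 over the members and 0.00178 over all genes. Rad50, the MRN subunit that tethers broken ends, stood at 39.6, 30.5 and 26.2 CPM in oviductal and at 85.0, 53.5 and 65.2 CPM in Cas9-GFP organoids (log2 fold change 1.09, SE 0.26, adjusted p = 0.00807). Chek2 stood at 41.1, 25.9 and 22.5 CPM in Cas9-GFP organoids, above all 3 oviductal libraries (1.44, SE 0.44, adjusted p = 0.0292).

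In the same comparison 8 of 25 proliferation genes tested were higher, among them Mki67 (log2 fold change 2.91, adjusted p = 0.00375), and none lower. Of other recombination and Fanconi genes (20 tested) 1 was higher and 3 lower, including the BRCA2-binding gene Shfm1 (-1.01, adjusted p = 0.00135) and Brcc3 (-1.50, adjusted p = 0.00292), and Lig4 (-1.35, adjusted p = 0.0197) was lower and Polm (1.26, adjusted p = 0.0465) higher among 3 end-joining genes. Strain background, the Cas9 allele and the low Ovgp1 of these organoids cannot be told apart. Rad50 lost its call without Cas9-GFP organoids 1 (adjusted p = 0.059), and Chek2 without Cas9-GFP organoids 1 or 2 or oviductal organoids 2 or 3 (up to 0.165).

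The TBP clones showed no called member against Cas9-GFP organoids, by edgeR (12 tested) or DESeq2 (40 tested). Of all genes tested, edgeR called 0.389% higher and 0.428% lower, and DESeq2 called 0.349% and 0.454%. At an unadjusted p under 0.05, 1 member was higher and 1 lower, beside 392 and 375 of 7708 genes. The smallest p belonged to Atm, which stood at 11.2, 11.2 and 14.6 CPM in the clones and at 21.0, 39.7 and 24.6 CPM in Cas9-GFP organoids (log2 fold change -1.12, SE 0.46, adjusted p = 0.424, and -1.13 without TBP clone 1). The resection factor Rbbp8 stood at 11.2, 42.3 and 47.0 CPM in the clones and at 21.0, 20.7 and 20.3 CPM in Cas9-GFP organoids (0.95, SE 0.41, adjusted p = 0.457, and 1.07 without TBP clone 1), where TBP clone 1 was below and the other clones above. Fance of the Fanconi core stood at 33.5, 28.4 and 27.8 CPM against 16.2, 15.5 and 16.0 CPM (0.84, SE 0.41, adjusted p = 0.531, and 0.77 without TBP clone 1). Without TBP clone 1 no member of 14 tested was called, with 2 higher and 1 lower at an unadjusted p under 0.05. The proliferation list had 29 tested genes, all with a positive log2 fold change and none called.

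Tumor-derived organoids summed to 588 to 673 CPM over the 42 genes, overlapping only with TBP clone 3 at 598 CPM, and had a proliferation sum of 2666 to 4999 CPM. Against the TBP clones no member was called by edgeR (32 tested) or DESeq2, where edgeR called 0% of all genes tested higher and 0% lower and DESeq2 called 0.451% and 0.179%. In simulated counts 1% of 4-fold changes were recovered here. At an unadjusted p under 0.05, 4 members were higher and 1 lower, beside 449 and 305 of 9496 genes. The translocase gene Fancm held only 0, 2 and 19 counts in TBP clones 1 to 3, or 0, 1.07 and 4.33 CPM. It stood at 7.74, 8.07, 11.6 and 6.79 CPM in T1-mes, T2-epi, T3-mes and T4-epi. Fancm had a log2 fold change of 1.61 (SE 0.66, adjusted p = 0.601, and 1.56 without TBP clone 1). Chek2 had one of -1.63 (SE 0.67, adjusted p = 0.603), and of -0.63 without TBP clone 1 (adjusted p = 0.694). The Chek2 level of TBP clone 1, 168 CPM, rested on 15 counts, and the other clones held 37.0 and 28.1 CPM against 15.9, 21.4, 14.6 and 32.5 CPM in tumor-derived organoids. Without TBP clone 1, 2 of 33 members were higher and none lower at an unadjusted p under 0.05, and again none was called.

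Brip1 and Rad50 were both high in these lines. Brip1 stood at 31.0, 37.5, 35.9 and 30.6 CPM in T1-mes, T2-epi, T3-mes and T4-epi, above the 25.1 CPM of TBP clone 3, the highest of the other libraries. Rad50 stood at 80.2, 112, 112 and 111 CPM, and clones 2 and 3 held 78.7 and 82.8 CPM. Between the mes and epi lines no member was called by edgeR (32 tested) or DESeq2 (41 tested). Of all genes tested, edgeR called 1% higher and 0.123% lower in mes, and DESeq2 called 2.78% and 0.762%. In edgeR 0 members but 883 and 495 of 9775 genes passed an unadjusted p under 0.05. With 2 lines on each side, 3% of 4-fold changes were recovered in simulated counts, so that the lack of calls does not show equal levels. The smallest p belonged to H2afx (log2 fold change -1.12, SE 0.50, adjusted p = 0.391), Chek2 (-0.81, SE 0.45, adjusted p = 0.479) and Brca2 (-0.86, SE 0.54, adjusted p = 0.544). H2afx stood at 11.4 and 6.79 CPM in the mes and at 22.3 and 17.5 CPM in the epi lines. Chek1 stood at 26.4, 19.0 and 31.5 CPM in T1-mes, T2-epi and T4-epi but at 4.85 CPM in T3-mes. Without T1-mes, 2 members were called, Rad51b higher and Chek1 lower in T3-mes, a fit that assumed the lone mes line to vary like the epi lines and called 7.16% of all genes higher and 6.80% lower.

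**Figure D3:**
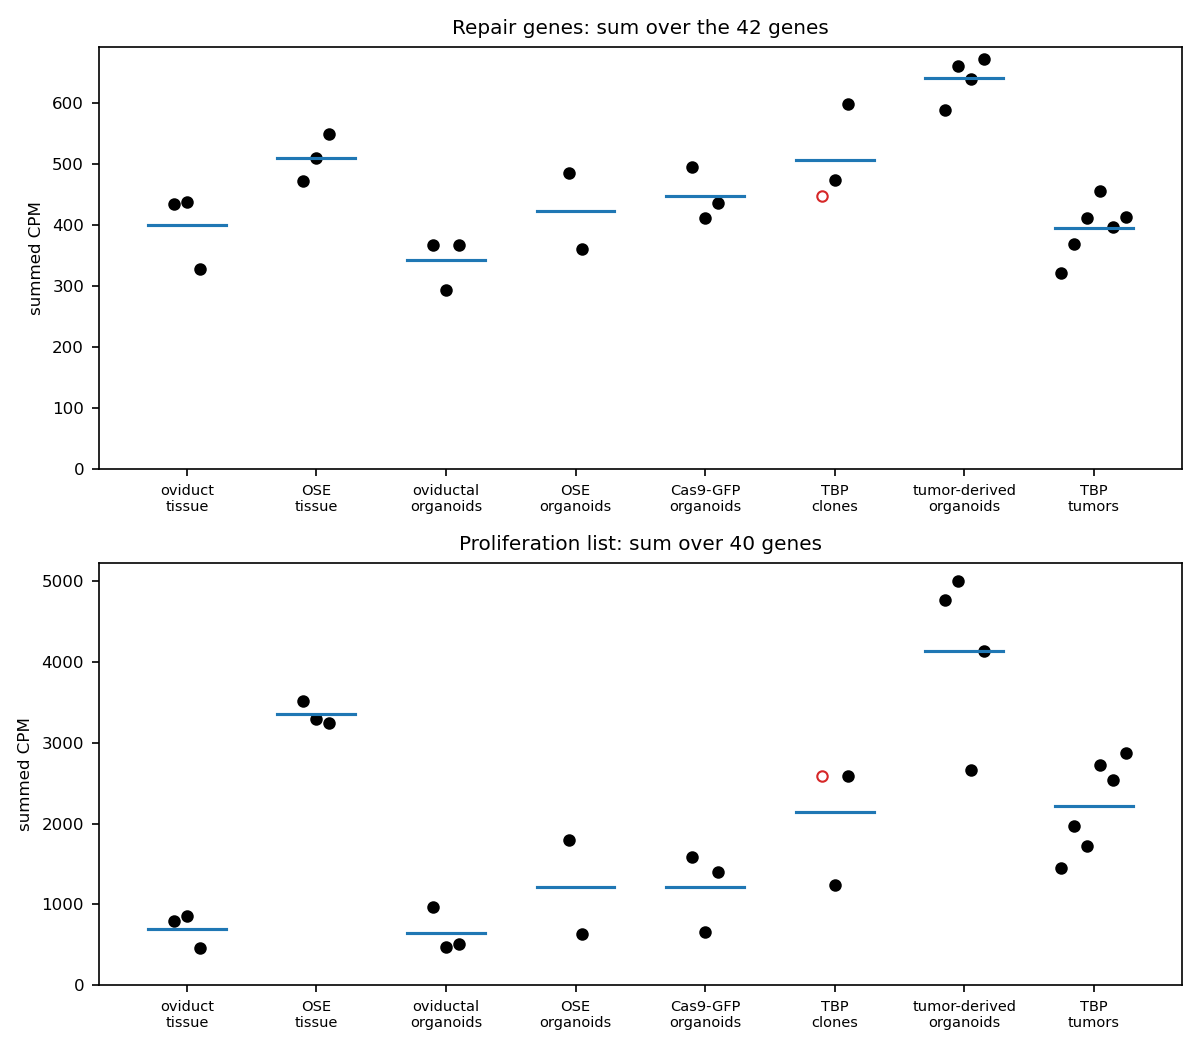
Summed CPM (vertical axes, from 0) of the 42 repair genes (top) and of 40 proliferation genes (bottom) in each library by group, with 1 point per library, blue bars at group means and an open red circle for TBP clone 1. OSE tissue and tumor-derived organoids stand high in both panels, while the 6 tumors, at 1453 to 2870 CPM of proliferation genes, hold 320 to 455 CPM of the repair genes.

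TBP tumors, grown from TBP clones that the labels do not name, were compared with the 3 TBP clone libraries. Of 27 members tested 2 were higher and 2 lower in tumors, where 20.1% of all genes tested were higher and 11.7% lower. The median log2 fold change was -0.20 over the members and 0.16 over all genes. Chek2 and Rad50 fell and H2afx and Atm rose.

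Chek2 ranged from 3.50 to 11.2 CPM in the 6 tumors (median 7.48) and stood at 168, 37.0 and 28.1 CPM in the clones (log2 fold change -3.02, SE 0.55, adjusted p = 0.00212). Every tumor was below every clone, and without TBP clone 1 the log2 fold change was -2.13 (adjusted p = 0.00303). Rad50 ranged from 14.9 to 30.5 CPM in tumors (median 22.9), below the 33.5, 78.7 and 82.8 CPM of the clones (-1.62, SE 0.32, adjusted p = 0.00323, and -1.83 without TBP clone 1). H2afx ranged from 13.2 to 24.5 CPM in tumors (median 18.2) and stood at 0, 5.36 and 5.70 CPM in the clones (1.78, SE 0.41, adjusted p = 0.00762, and 1.70 without TBP clone 1). Atm ranged from 18.9 to 39.3 CPM in tumors (median 30.9) and stood at 11.2, 11.2 and 14.6 CPM in the clones (1.18, SE 0.33, adjusted p = 0.020, and 1.15 without TBP clone 1). For each of the 4 genes the groups did not overlap.

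Markers of other cells moved with this comparison: fibroblast markers summed to 9650 to 56973 CPM in tumors and at most 22.3 CPM in clones, myeloid markers (5 genes) to 228 to 971 CPM against 21.2 to 38.6 CPM, and Trp53 was higher in tumors by 3.40 on the log2 scale. The 6 epithelial markers summed to 177 to 2990 CPM in tumors and to 2559 to 4589 CPM in clones, and Pax8 was at 0 in Tumor 2 and Tumor 4. The mes lines, grown in Nutlin-3a, held 3120 to 7532 CPM of the fibroblast markers, and whether host or edited cells gave them in tumors was not tested. The part of these cells in the members' changes was not tested either, and extraction differed as between tissue and organoids. Of other recombination and Fanconi genes (30 tested) 1 was higher and 2 lower, Brcc3 (-1.75, adjusted p = 0.0013) and Wdr48 (-1.95, adjusted p = 0.0133) having the smallest p. Of 38 proliferation genes tested 3 were higher and 1 lower.

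Without TBP clone 1, 7 members of 32 were called, 2 higher and 5 lower, with Brip1, Parp2 and Rbbp8 added to Chek2 and Rad50, where 19.8% of all genes were higher and 14.4% lower in that fit. Atm lost its call without TBP clone 2 (adjusted p = 0.0903). With the replicate number as a block in edgeR, H2afx (adjusted p = 0.154), Rad50 (0.115) and Atm (0.211) lost their calls. Chek2 was called under every alternative run.

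Against oviduct tissue, extracted in the same way, TBP tumors differed in 8 of 25 members tested, 4 higher and 4 lower, where 23.7% of all genes tested were higher and 22.4% lower. The median log2 fold change was 0.44 over the members, also with the 4 members at the count floor set to their bounds, and 0.08 over all genes. Chek1, Bard1 and the annealing factor Rad52 were among the higher genes, and Chek2, Parp2, the Fanconi ubiquitin ligase Fancl and Rad50 lower. The oviduct libraries are those already compared above, so these values are not independent of the other comparisons that use them.

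Chek1 ranged from 3.82 to 26.8 CPM in tumors (median 15.8), against 0 to 1.45 CPM in oviduct, at least 4.62-fold higher by the floor of 3 counts per library (adjusted p = 0.00438). Bard1 ranged from 5.46 to 12.9 CPM (median 8.69), at least 2.78-fold higher than the 1.22 to 1.45 CPM of oviduct (adjusted p = 0.00161). Rad52 ranged from 6.12 to 8.13 CPM (median 6.65), at least 2.11-fold higher than oviduct at 1.32 to 2.44 CPM (adjusted p = 0.00512). All tumors were above all oviduct libraries for these 3 genes.

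Chek2 changed by -2.69 (SE 0.31, adjusted p = 0.000114), with the tumors at no more than 11.2 CPM and the oviduct libraries at no less than 35.4 CPM. Parp2 ranged from 12.9 to 31.8 CPM in tumors (median 23.6), all below oviduct tissue (-1.70, SE 0.30, adjusted p = 0.00139). Fancl changed by -0.97 (SE 0.29, adjusted p = 0.0208) with no overlap, and Rad50 by -0.71 (SE 0.26, adjusted p = 0.0448) with overlap. Atm ranged from 18.9 to 39.3 CPM in tumors and stood at 25.4, 14.5 and 8.55 CPM in oviduct, a difference that missed the threshold (0.80, SE 0.34, adjusted p = 0.0759).

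Proliferation genes were higher in tumors, 29 of 38 tested with none lower, led by Mki67 (log2 fold change 3.64, adjusted p = 0.000191) and Plk1 (2.06, adjusted p = 0.000269). Of other checkpoint genes (15 tested) 5 were higher and 3 lower, with Wee1 (2.10, adjusted p = 0.00375) and Clspn (2.53, adjusted p = 0.00443) the clearest, and of other recombination and Fanconi genes (27 tested) 4 were higher and 3 lower, among them Brcc3 (-2.52, adjusted p = 1.35e-05) and Babam1 (-1.29, adjusted p = 0.000129) of the BRCA1-A complex. Oviduct markers summed to 7.87 to 85.7 CPM in tumors against at least 73122 CPM in tissue, and the part of cell makeup was not tested. Chek1, Bard1, Chek2 and Parp2 were called under every alternative run. Fancl lost its call without oviduct tissue 1 or 2 (up to 0.0938), and Rad50 without any oviduct library or any tumor but Tumor 3 (up to 0.258).

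**Figure D4:**
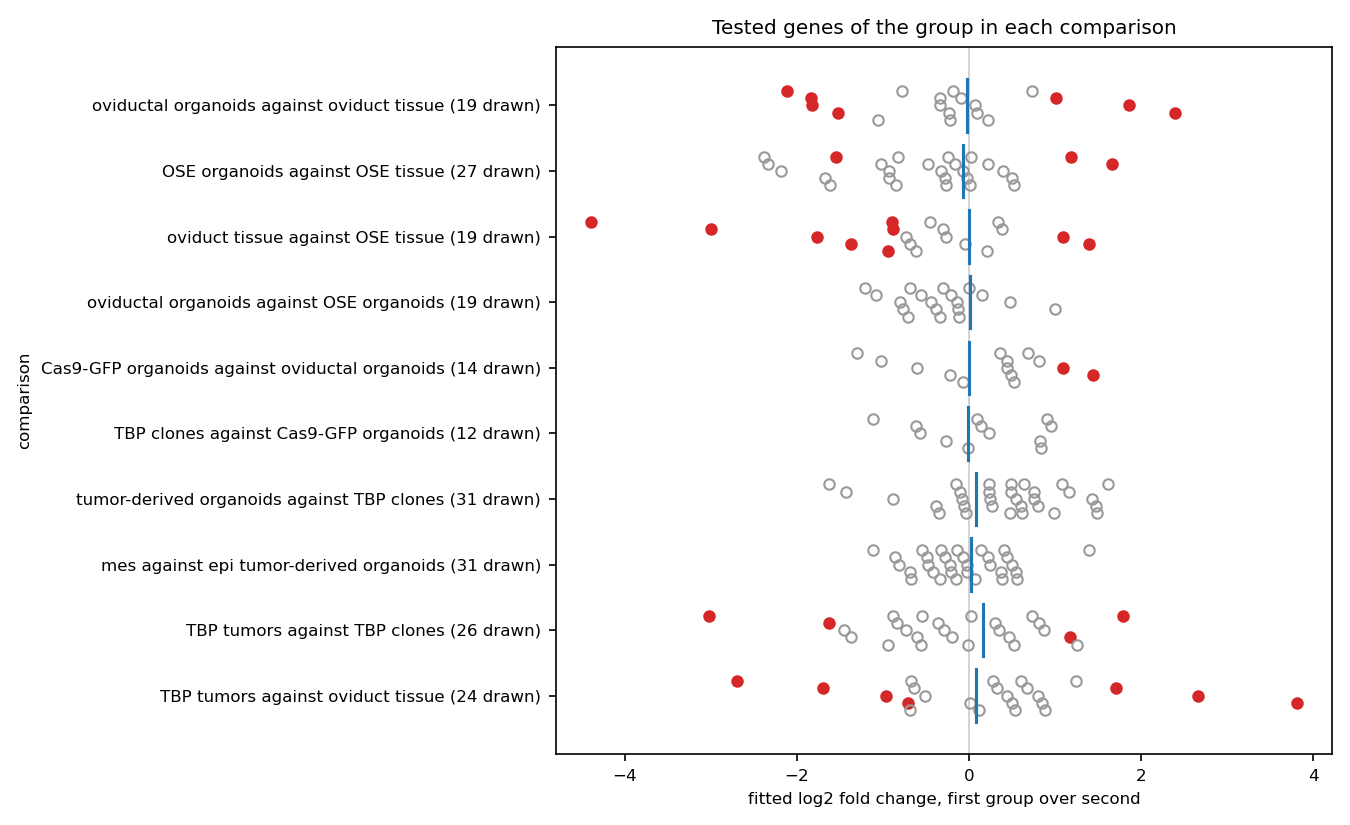
Fitted log2 fold change (horizontal axis, first group over second) of members tested (those of the map of levels), with 1 row per comparison, filled red where the adjusted p was under 0.05 and open gray otherwise, and a blue line at the median of all genes tested. The fitted values of Chek1, Bard1 and Rad52 against oviduct tissue rest on groups with at most 3 counts per library and are not bounds. No member is red in oviductal against OSE organoids, TBP clones against Cas9-GFP organoids, tumor-derived organoids against TBP clones, or mes against epi.

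Across the 8 groups the order of levels differed between members. Chek2 had its highest mean outside the clones in oviduct tissue (47.8 CPM) and its lowest in the tumors (7.38 CPM), next to oviductal organoids (10.6 CPM), whose libraries overlapped those of the tumors. Parp2 was highest in oviduct tissue (70.6 CPM), with no overlap with any other group, and lowest in the tumors (22.3 CPM), which overlapped both oviductal and OSE organoids among others. Rad50 was highest in tumor-derived organoids (mean 104 CPM) and lowest in tumors (22.9 CPM). Xrcc5 was lowest in OSE tissue (7.59 CPM), then oviduct tissue (12.6 CPM) and tumors (17.8 CPM), below the means of every organoid group, although TBP clone 1 at 11.2 CPM and OSE organoids 2 at 18.2 CPM lay within the range of the tissue and tumor libraries. These orders are given as a description, without a test.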

How the data were processed

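The values deposited by the authors are gene-level counts of CEL-Seq2 reads (75-base paired-end), mapped by BWA on GRCm38, from uniquely mapped reads in the direction of transcription and without correction by molecular identifiers, so that amplification copies were counted. From the deposited counts, 1 spike-in row (1 count) was left out. Each comparison was fitted on its own libraries with edgeR 4.0.16 in R 4.3.3 (filterByExpr, TMM, quasi-likelihood test, two-sided, Benjamini-Hochberg adjustment over all genes tested, threshold 0.05), which was tested on simulated counts. An SE is the log2 fold change over the root of F. Displayed CPM used TMM over all 27 libraries, and bounds used a floor of 3 counts per library, which covers counting error only. The alternatives were DESeq2 1.42.0, its size-factor method in edgeR (RLE), no filter, all 27 libraries in 1 fit, the replicate number as a block, and each library left out. The labels do not say whether all libraries of a group came from separate animals or cultures, so p-values measure the spread between these libraries. No pair of libraries agreed within sampling noise (lowest chi-square per gene 2.53 over 37 pairs). Members and lists were chosen with earlier results of these data known. Members called in at least 2 comparisons were described in full, with the 3 of smallest p where none was called and the 2 of smallest p in each other list, and genes named beyond this were chosen after their values were seen. Results of 1 member are not reported here, although counts over members include it. Promoters came from RefSeq and gene positions from GENCODE. Figures used Python 3.11.15 and matplotlib 3.10.9.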

Additional observations from a re-analysis of the deposited data

Results flagged for a closer look

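Of 80 tests of an extreme library within a group of 4 to 10, 3 stood apart by Dixon's criterion, and chance alone sets apart about 1 group in 20. All 3 were in the 4 tumor-derived organoid lines. Rad50 stood at 80.2 CPM (176 counts) in T1-mes, below the other lines at 111.1 to 111.6 CPM. Rad51b stood at 31.5 CPM (65 counts) in T3-mes, and the next line held 7.28 CPM. Xrcc6 stood at 14.1 CPM (31 counts) in T1-mes, and the next line held 9.22 CPM.

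The change from tissue to organoids differed between oviduct and OSE for 2 members in the interaction test of edgeR. Chek1 had a term of 3.78 and Chek2 a term of -2.51 on the log2 scale, where a positive term is a larger organoid-over-tissue change in oviduct.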

How the results depend on the processing

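Counts of called members moved as follows. In OSE organoids against OSE tissue (3 called), the fit of all 27 libraries gave 6, the replicate block 0, and leaving out 1 library 0 to 16, with the balance turned to lower genes in the fits that gave 16, 7 and 1. In oviduct against OSE tissue (9 called), DESeq2 gave 5, no filter 14, all 27 libraries 3, and leaving out 1 library 5 to 10. Of all genes, the main fit called 26.9% higher and 24.3% lower, DESeq2 15.1% and 11.1%, and no filter 19.4% and 17.6%. The fit of all 27 libraries called 12.2% and 8.74% of all genes there. In TBP tumors against TBP clones (4 called), all 27 libraries gave 9, the replicate block 1 and leaving out 1 library 4 to 7. Of all genes, the main fit called 20.1% higher and 11.7% lower, all 27 libraries 23.6% and 15.5%, and the block 11.6% and 3.57%. In TBP tumors against oviduct tissue (8 called), the replicate block gave 4 and leaving out 1 library 6 to 8. The block called 16.6% of all genes higher and 17.7% lower, against 23.7% and 22.4% in the main fit. In Cas9-GFP against oviductal organoids (2 called), all 27 libraries gave 1 and leaving out 1 library 0 to 3. The fit of all 27 libraries called 2.91% of all genes higher and 4.29% lower, against 13.0% and 13.3% in the main fit. Leaving out 1 library gave 5 to 8 in oviductal organoids against oviduct tissue, 0 to 1 in oviductal against OSE organoids, 0 to 2 in mes against epi and 1 to 3 for the interaction. In OSE organoids against OSE tissue the main fit called 14.5% of all genes higher and 18.6% lower, and the replicate block 1.98% and 3.28%. The fit of all 27 libraries called 13.1% and 14.6% there, and leaving out OSE tissue 3 gave 7.27% and 11.4%. The share of all genes called thus moved with the settings too, and the cause was not tested. Over 33 calls, each of 1 gene in 1 comparison, 391 alternative values were computed, of which 316 kept the call, 75 lost it and 0 reversed.

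Replicate numbers gave no strong pairing: same-numbered libraries' deviations correlated at -0.14 to 0.138. Each library still correlated best with its own number in oviduct against OSE tissue, Cas9-GFP against oviductal organoids and TBP clones against Cas9-GFP organoids. In TBP tumors against TBP clones the replicate block called 1219 higher and 374 lower genes, against 2105 and 1228 without it. In mes against epi the block called 212 and 28 genes, against 98 and 12 without it. In simulated counts 5% of 4-fold changes were recovered for OSE organoids against OSE tissue and for TBP tumors against TBP clones. The share was 3% for mes against epi, and 1% for tumor-derived organoids against TBP clones and for oviductal against OSE organoids. It was 57% to 94% in the other comparisons. The simulation changed few genes, which makes the adjustment stricter than in data with many changes. The fit of OSE organoids against OSE tissue called 14.5% of all genes higher and 18.6% lower. That of TBP tumors against TBP clones called 20.1% and 11.7%, so the 5% does not measure the power of either fit. Few calls in the comparisons at 3% and 1% do not show equal levels.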
